A study of Mus musculus with 4 samples.

Results

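The interleukin 6 family was examined in primary cultured mouse mesenchymal stromal cells (MSCs, labelled primary MSCs, passage 5) in which Islr had been knocked down. Islr encodes Meflin, a protein of the stromal cell surface. The members were 9 genes fixed by name, out of 21154 genes that the arrays name: the ligand genes Il6, Lif and Il11, the receptor genes Il6ra, Il6st, Lifr and Osmr, and the signalling genes Stat3 and Socs3. They were represented by 12 probes of 55681, and all 12 were well above background on all 4 arrays. The arrays held 3 Islr knockdown samples, each with a short hairpin RNA against another sequence of Islr (mMSC shlSLR no.1, no.2 and no.3, called hairpins 1, 2 and 3), and 1 sample with a control hairpin (mMSC shControl). All 4 samples were MSCs transduced with retroviral hairpins. Each hairpin was on 1 one-colour array, the labels give no mouse strain or age, and whether the 4 cultures shared 1 cell preparation is not stated, so the spread between hairpins is the only replicate error.

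Cytokines of this family signal through the shared receptor chain gp130, encoded by Il6st. Interleukin 6 and interleukin 11 first bind their own receptors, encoded by Il6ra and Il11ra1, while leukemia inhibitory factor and oncostatin M bring gp130 together with the chains encoded by Lifr and Osmr. JAK kinases bound to gp130 phosphorylate the transcription factor STAT3, which induces, among other genes, Socs3, an inhibitor that acts on gp130 and its kinases. Bone marrow stromal cells are known producers of interleukin 6 and leukemia inhibitory factor.

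The promoters of Il6, the member with the largest difference, and of Socs3, the feedback gene of STAT3, are shown as background. Whether the factor motifs in them bear on the values of these genes was not tested. Each window holds an annotated start and the bases upstream of it (RefSeq, GRCm38.p6), and positions are counted from 0 at the start base. In the Il6 window (chr5:30012864-30013163, plus strand) the capitals mark, from the 5′ end, the AP-1 motif TGANTCA, the C/EBP motif TTGCNNAA and the NF-kappa B consensus. In the Socs3 window (chr11:117969317-117969616, minus strand) they mark the STAT motif TTCNNNGAA.
Il6: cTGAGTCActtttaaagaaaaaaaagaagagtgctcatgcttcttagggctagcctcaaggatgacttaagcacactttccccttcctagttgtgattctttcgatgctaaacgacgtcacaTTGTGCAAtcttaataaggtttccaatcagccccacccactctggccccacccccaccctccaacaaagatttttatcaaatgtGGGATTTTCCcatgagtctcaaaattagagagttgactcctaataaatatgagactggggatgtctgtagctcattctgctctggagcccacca
Socs3: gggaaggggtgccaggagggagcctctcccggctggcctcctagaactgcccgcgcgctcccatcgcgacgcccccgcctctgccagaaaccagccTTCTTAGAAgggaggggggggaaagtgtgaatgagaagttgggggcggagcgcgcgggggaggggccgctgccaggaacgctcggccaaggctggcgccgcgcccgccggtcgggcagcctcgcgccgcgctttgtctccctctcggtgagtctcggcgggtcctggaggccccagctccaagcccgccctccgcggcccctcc
The NF-kappa B match of Il6 lay at -44 to -35, its C/EBP match at -128 to -121 and its AP-1 match at -249 to -243, and the STAT match of Socs3 lay at -154 to -146. Both strands were searched in the 32851 promoter windows of the RefSeq table, of which 4.51% held the NF-kappa B consensus, 7.81% the AP-1 motif, 10.8% the C/EBP motif and 8.30% the STAT motif. All 9 members matched the table, with 11 windows. Among these, an NF-kappa B match stood in the window of Il6, a C/EBP match in that of Il6 and a STAT match in that of Socs3, while AP-1 matches stood in windows of Il6, Lif, Il11 and Osmr. The matches are letters in a window and show no binding.

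The hairpins were first checked on their target. Islr had processed signals of 11.0, 70.5 and 3.44 on hairpins 1, 2 and 3, against 454 on the control array. Hairpins 1 and 3 were not well above background for Islr, so its level there was at most 4.89% and at most 3.38% of the control, and on hairpin 2 it was 15.8%. Differences below are log2 of the signal scaled by each array's 75th percentile, hairpin minus control. Each mean ± SD is taken across the knockdown arrays (n = 3), and the control is 1 array without a spread of its own. Adjusted p-values are from limma over the 13564 genes tested, and they take the spread between hairpins as the error of the lone control array too. In RNA from whole cultures, fewer cells of a type and less RNA per cell cannot be told apart.

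Among the ligand genes, Il6 was higher on all 3 hairpins. It encodes the cytokine that gives the family its name. Its signal was 906, 203 and 1077 on hairpins 1, 2 and 3, against 109 on the control array. The hairpins did not overlap the control, and hairpin 2 lay much nearer to it than the other two. The log2 difference was 3.15 for hairpin 1 (8.87-fold), 0.92 for hairpin 2 (1.90-fold) and 3.34 for hairpin 3 (10.1-fold). The mean was 2.47 ± 1.34 (5.54-fold), the sixth highest mean among the genes tested (rank 6 of 13564). The hairpins differed from each other by up to 2.41 log2 units, and Il6 missed limma's threshold (adjusted p = 0.964, unadjusted p = 0.0723). The Il6 mean was 2.13 without hairpin 1, 3.24 without hairpin 2 and 2.04 without hairpin 3. Hairpin 2, with the smallest Il6 difference, also had the highest remaining Islr signal, and their relation was not tested.

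**Figure D1:**
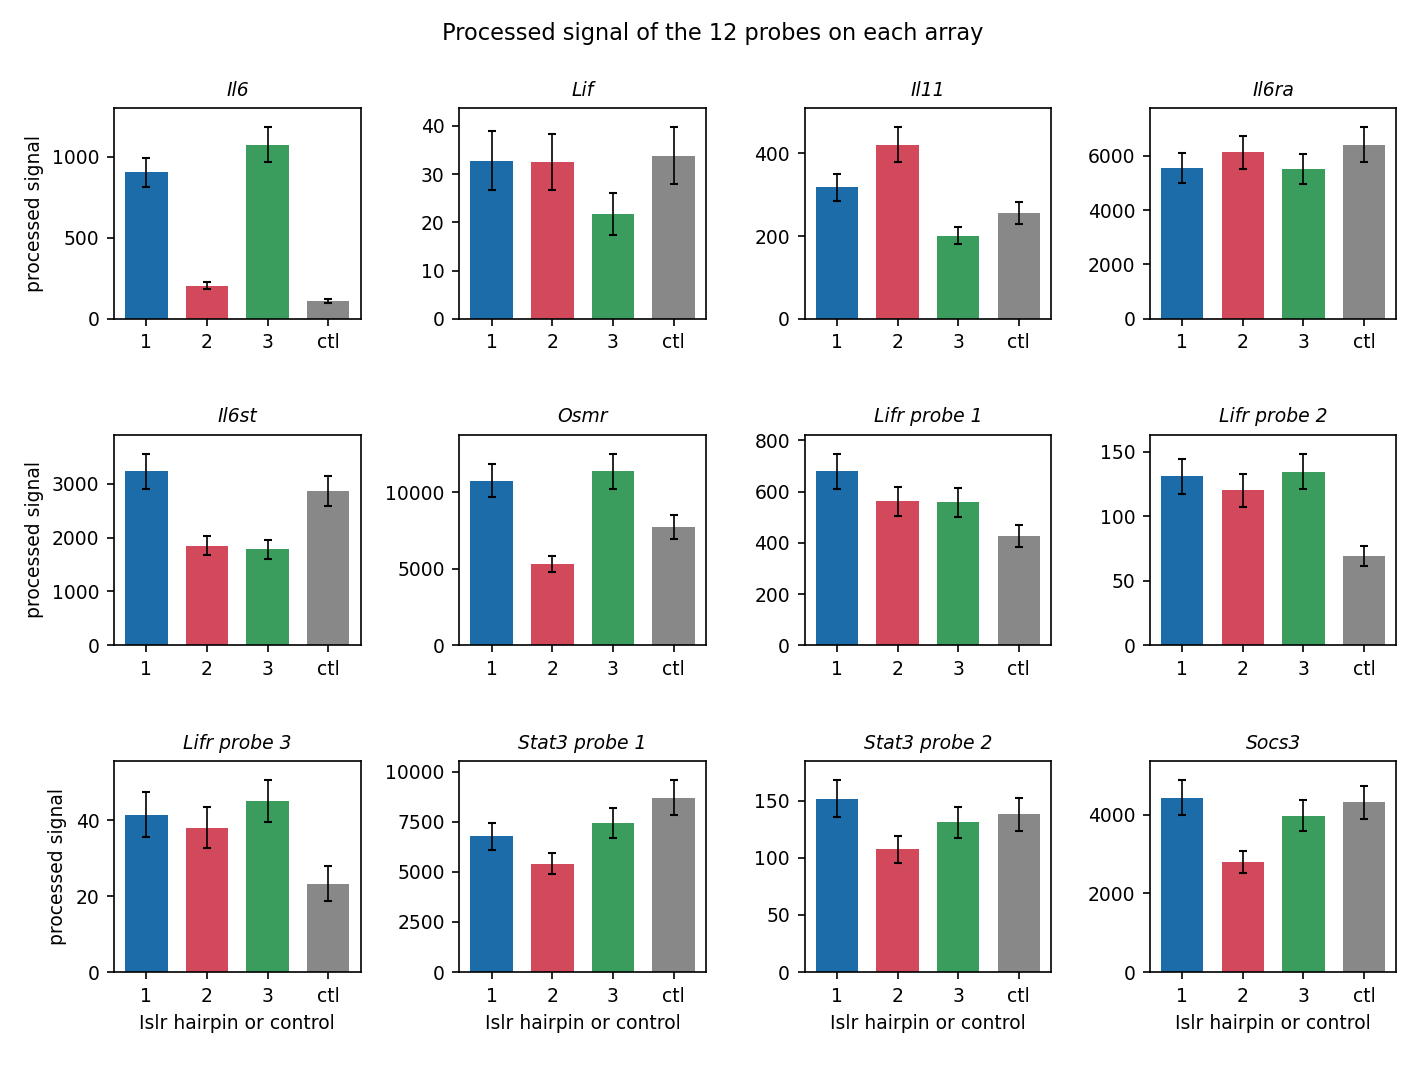
Processed signal (vertical axis, linear, arbitrary units, from 0) of the 12 probes of the 9 genes on the arrays of Islr hairpins 1, 2 and 3 and of the control hairpin (ctl), with the error that the scanner software gives for each probe as bars. Il6 stands at 906 and 1077 on hairpins 1 and 3, against 109 on the control array, and the 3 Lifr probes are above the control on every hairpin.

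The probe of Il6 was spotted 2 times on each array. The scaled log2 signals of these spots were 1.04 and 1.21 on hairpin 1, -1.14 and -1.06 on hairpin 2, 1.30 and 1.33 on hairpin 3, and -2.04 and -2.001 on the control array. On each hairpin both spots lay above both spots of the control array, while the spots of hairpin 1 were about as far apart as the means of hairpins 1 and 3. Spots of 1 array share their RNA and are not replicates.

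The differences of Lif and Il11 were smaller and had both signs. Lif, encoding a cytokine that signals through the Lifr and gp130 chains, was dim, with signals of 32.8, 32.4 and 21.6 on hairpins 1, 2 and 3, against 33.8 on the control array. Hairpins 1 and 2 were at 0.05 and -0.04 and hairpin 3 at -0.61, a mean of -0.20 ± 0.36 (adjusted p = 0.974). The software's own error was 17.5% to 20.1% of each Lif signal, so differences of the size seen on hairpins 1 and 2 were not detectable here. Il11, whose product is known for its part in bone and stromal biology, had signals of 318, 421 and 201 on hairpins 1, 2 and 3, against 256 on the control array. The control lay inside the range of the hairpins: the differences were 0.41, 0.74 and -0.31, a mean of 0.28 ± 0.54 (adjusted p = 0.974). The Il11 mean was 0.22 without hairpin 1, 0.05 without hairpin 2 and 0.58 without hairpin 3. Hairpin 2 was the highest of the 4 arrays for Il11 and the lowest of the hairpins for Il6.

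Of the receptor genes, Lifr was higher on all 3 hairpins with each of its 3 probes. The brightest probe, used in the test, had signals of 680, 563 and 558 on hairpins 1, 2 and 3, against 428 on the control array. Its differences were 0.76, 0.42 and 0.41, a mean of 0.53 ± 0.20 (1.45-fold, adjusted p = 0.964, unadjusted p = 0.0808). The second probe, which matches another Lifr transcript, had signals of 131, 120 and 135, against 69.3 on the control array, a mean difference of 0.94 ± 0.11. The third and dimmest had signals of 41.5, 38.0 and 45.0, against 23.3 on the control array, a mean difference of 0.88 ± 0.13. On each of the 3 probes, all hairpins lay above the control. Averaged over its probes Lifr was at 0.78, with an adjusted p of 0.728.

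Osmr, the oncostatin M receptor chain, and Il6st, the gp130 chain, each had hairpins on both sides of the control. Osmr had signals of 10751, 5326 and 11381 on hairpins 1, 2 and 3, against 7744 on the control array. Hairpins 1 and 3 were higher by 0.57 and 0.59 and hairpin 2 was lower, at -0.52, which gave a mean of 0.21 ± 0.63 (adjusted p = 0.984). The Osmr mean was 0.58 without hairpin 2 (adjusted p = 0.915), 0.03 without hairpin 1 and 0.03 without hairpin 3. Il6st had signals of 3232, 1853 and 1780 on hairpins 1, 2 and 3, against 2863 on the control array. Here hairpin 1 was above the control, at 0.27, and hairpins 2 and 3 were below it, at -0.60 and -0.66, with a mean of -0.33 ± 0.52 (adjusted p = 0.970). The Il6st mean was -0.63 without hairpin 1 (adjusted p = 0.877), -0.19 without hairpin 2 and -0.17 without hairpin 3.

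Il6ra, which encodes the receptor chain specific to interleukin 6, stayed close to the control. Its signals were 5559, 6130 and 5522 on hairpins 1, 2 and 3, against 6418 on the control array. All 3 hairpins were lower, at -0.11, -0.04 and -0.19 (mean -0.11 ± 0.07, adjusted p = 0.974). The software's own error was 10.0% of each of these signals, about as large as the differences. Il6ra had the smallest SD over hairpins of the 9 members, and 89.1% of the genes tested had a larger one.

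**Figure D2:**
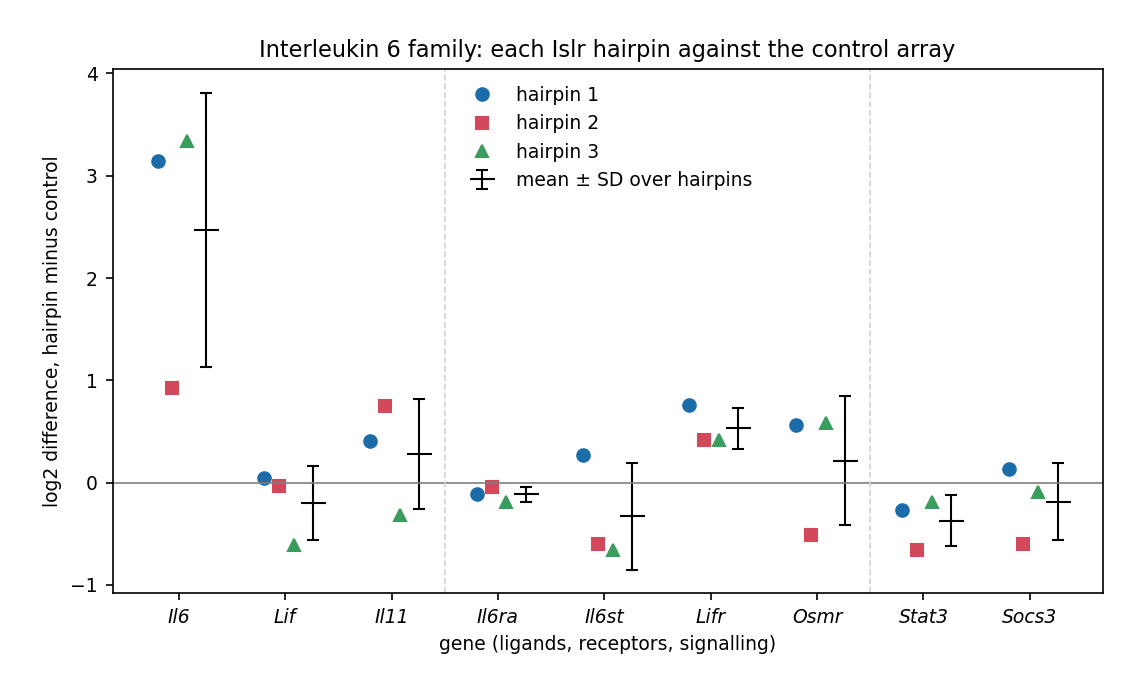
Log2 difference of each Islr hairpin from the control array (vertical axis) for the 9 genes, in the order ligands, receptors and signalling genes, with the mean ± SD over the 3 hairpins beside the points. Il6 and Lifr have all hairpins above 0 and Il6ra and Stat3 have all below 0, while hairpin 2 is the lowest hairpin for Il6, Osmr, Stat3 and Socs3.

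Stat3, the transcription factor gene of the pathway, was lower on all 3 hairpins by its brighter probe. The signals were 6783, 5421 and 7458 on hairpins 1, 2 and 3, against 8707 on the control array. The differences were -0.27, -0.66 and -0.19, a mean of -0.37 ± 0.25 (1.30-fold lower, adjusted p = 0.964). This probe was spotted 10 times per array, of which 1 spot on hairpin 3 carried an outlier flag and was left out. The SD between spots was 0.05, 0.03 and 0.04 on hairpins 1, 2 and 3, against 0.03 on the control array. The highest spot of any hairpin was at 4.16, on hairpin 3, and the lowest of the control array at 4.22. No spot of a hairpin reached a spot of the control, but spots of 1 array share their RNA and are not replicates. A second, dimmer Stat3 probe, which matches another transcript, was not lower on all 3 hairpins. Its signals were 152, 107 and 131 on hairpins 1, 2 and 3, against 138 on the control array. The mean difference was -0.05 ± 0.29, with hairpin 1 above the control.

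**Figure D3:**
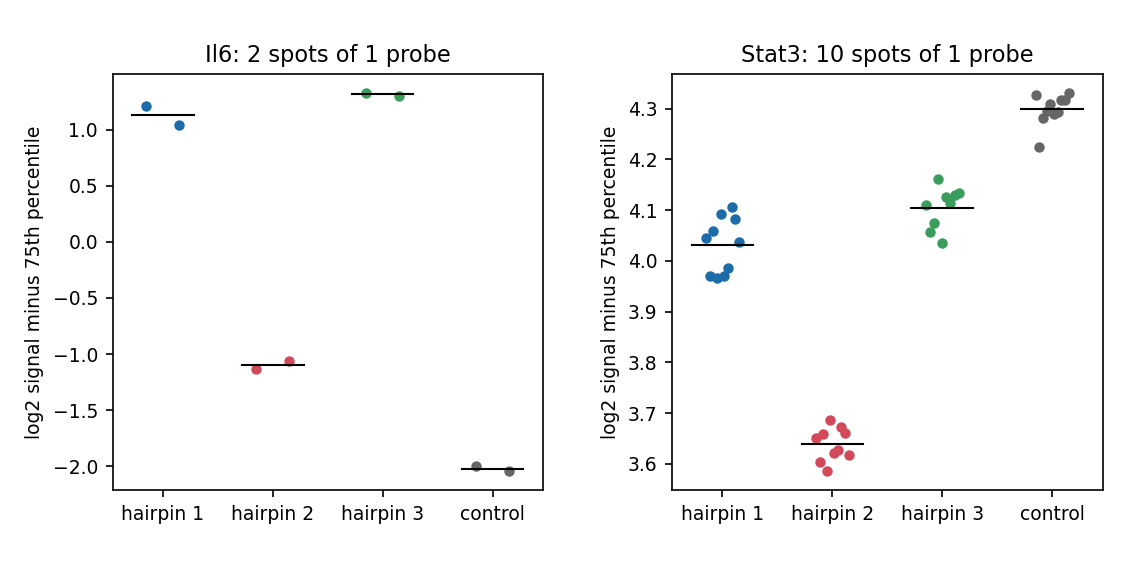
Scaled log2 signal (vertical axis) of every spot of the Il6 probe with 2 spots per array and of the Stat3 probe with 10 spots per array, on Islr hairpins 1, 2 and 3 and on the control array, with the mean of the spots as a line. Spots of an array lie close together, and the Stat3 spots of the 3 hairpins lie between 3.59 and 4.16, all below the control's lowest at 4.22. Spots of 1 array are not replicates.

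Socs3, the feedback inhibitor, had signals of 4430, 2793 and 3976 on hairpins 1, 2 and 3, against 4312 on the control array. Hairpins 1 and 3 lay close to the control, at 0.13 and -0.09, and hairpin 2 was lower, at -0.60, for a mean of -0.19 ± 0.38 (adjusted p = 0.974). On hairpins 1 and 3, where Il6 was 8.87-fold and 10.1-fold above the control, Socs3 was 1.096-fold and 0.941-fold its control level. The relation of Socs3 to Il6 was not tested.

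Over the family, limma called 0 of the 9 members, and 0 had an unadjusted p under 0.05. Of all 13564 genes it called 0 higher (0%) and 47 lower (0.347%). By a rule of size with no test, at least 2-fold on all 3 hairpins in one direction, 0 members counted, where 0.236% of all genes were higher and 1.68% lower by that rule. Il6 missed it on hairpin 2 alone and was the 1 member that reached 1.5-fold on all 3 hairpins, where 0.958% of all genes were higher and 3.04% lower by that rule. Of the 9 members, 2 (Il6 and Lifr) lay above the control on all 3 hairpins, beside 27.6% of all genes, and 2 (Il6ra and Stat3) below it on all 3, beside 24.6%. These shares are near the background. All 3 differences of a gene share 1 control array. The median of the members' mean differences was -0.11, beside 0.01 over all genes.

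The spread between hairpins varied widely among the members. Their median SD over the hairpins was 0.38, beside 0.20 over all genes tested, a difference that was not tested. Of all genes, 1.22% had a larger SD than Il6, 7.96% than Osmr, 11.01% than Il11, 11.9% than Il6st, 20.2% than Socs3 and 21.9% than Lif. For Stat3 this share was 38.2%, for Lifr 50.3% and for Il6ra 89.1%. Hairpin 1 was above the control for 7 of the 9 members, beside 49% of all genes. Hairpin 2 was above it for 3 members, beside 50.3% of all genes, and hairpin 3 for 3 members, beside 55.1%. Il6, Osmr, Stat3 and Socs3 had their lowest hairpin value on hairpin 2: hairpin 1 lay above hairpin 2 by 2.22, 1.08, 0.39 and 0.74 log2 units for these genes, and hairpin 3 above it by 2.41, 1.102, 0.47 and 0.52. With 1 array per hairpin, differences between hairpins have no replicate check.

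Genes with a pattern like that of Il6 were sought among the 12714 other genes above background on all 4 arrays, by the root mean square distance between the 3 log2 differences. The nearest were Parm1 (distance 0.43, with 2.96, 0.22 and 3.48 on hairpins 1, 2 and 3), Samd5 (0.43, with 2.70, 0.60 and 2.83), Bcl2l15 (0.78), the forkhead factor gene Foxf2 (0.80) and the keratin gene Krt19 (1.00). The nearest to Il11 were the platelet-derived growth factor gene Pdgfb (0.10), Zfp850 (0.13), the histone gene H2bc3 (0.13), Sdcbp2 (0.14) and Gls2 (0.14). Lif, with a pattern near 0 on hairpins 1 and 2, had many close neighbours, led by the kinase gene Mapkapk2 (0.02) and by Krtap4-1 (0.02), Errfi1 (0.03), Zfp329 (0.03) and Pramel48 (0.04). Likeness over 3 values that share a control array is a description only.

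The other genes of the pathway gave 78 tested genes of 91 listed, of which limma called 0 and 6 had an unadjusted p under 0.05, beside 4.84% of all genes. Of these 78, 19 lay above the control on all 3 hairpins, beside 27.6% of all genes, and 17 below it, beside 24.6%, with a median of 0.02. These shares are near the background. Of 7 other ligand genes tested (9 listed), 2 were above the control on all 3 hairpins and 3 below, with a median of 0.03. Clcf1, which encodes a cytokine that acts through the ciliary neurotrophic factor receptor, was at 0.50 ± 0.19, and Ctf2 at 0.20 ± 0.15. Cntf was at -0.07 ± 0.04 by its brighter probe and at -0.43 by the dimmer one. Osm, the oncostatin M gene, was not well above background on any array.

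Il11ra1, which encodes the interleukin 11 receptor chain, was lower on all 3 hairpins. Its signals were 11641, 12131 and 11512 on hairpins 1, 2 and 3, against 18914 on the control array. The mean difference of -0.64 ± 0.04 (1.56-fold lower) had a small spread and still did not pass (adjusted p = 0.861). Il27ra, the other tested gene of 5 listed receptors, was at 0.05 ± 0.45. The receptor-shedding protease genes Adam10 and Adam17 were at -0.07 ± 0.31 and -0.17 ± 0.21.

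Of the 14 inhibitor genes, all tested, 3 lay above the control on all 3 hairpins, beside 27.6% of all genes, and 3 below, beside 24.6%. The other 8 lay on both sides, and the list's median was 0.02. These shares are near the background. Socs2, a feedback inhibitor best known for acting on growth hormone signalling, had signals of 1579, 1435 and 1635 on hairpins 1, 2 and 3, against 3364 on the control array. Its 3 probes were all below the control on every hairpin. By the brightest the differences were -0.998, -1.21 and -1.01, a mean of -1.07 ± 0.12 (2.10-fold lower, adjusted p = 0.412), the smallest adjusted p among the pathway genes listed. Cish, another member of that inhibitor family, was at -0.32 ± 0.60, Socs5 at -0.24 ± 0.11 and the phosphatase gene Ptpn6 at 0.39 ± 0.53. Kinases, adaptors and other STATs (12 tested of 14) had a median of -0.05. Of these 12, 2 lay above the control on all 3 hairpins, beside 27.6% of all genes, and 3 below, beside 24.6%. Stat6, the transcription factor gene of interleukin 4 signalling, was at -0.28 ± 0.25, Stat5b at 0.17 ± 0.21 and Stat5a at -0.14 ± 0.20.

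Of 25 tested STAT3 target genes (28 listed), 9 lay above the control on all 3 hairpins, beside 27.6% of all genes, and 3 below, beside 24.6%. The list's median difference was 0.32, -0.11 and 0.42 for hairpins 1, 2 and 3, and 0.24 for the means. Over all genes tested these medians were -0.005, 0.003 and 0.05, and 0.01 for the means. The difference from all genes was not tested, and the list was chosen with earlier results of these data known. Cebpd, the gene of the acute phase factor C/EBP delta, had signals of 25905, 7252 and 40605 on hairpins 1, 2 and 3, against 9206 on the control array. Like Il6 it was far above the control on hairpins 1 and 3 (1.59 and 2.17), but on hairpin 2 it was below it (-0.32), for a mean of 1.15 ± 1.30. The acute phase gene Saa3 was at 1.48 ± 0.62, the survivin gene Birc5 at 0.86 ± 0.28 and Fgl2 at -1.29 ± 0.66. None of the 25 passed limma's test (smallest adjusted p = 0.964), and 2 had an unadjusted p under 0.05, beside 4.84% of all genes.

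Regulators of Il6 transcription and of its mRNA were the last list, with 16 tested of 19 and a median of -0.01. Of these 16, 3 lay above the control on all 3 hairpins, beside 27.6% of all genes, and 4 below, beside 24.6%. Il1rn, the gene of the interleukin 1 receptor antagonist, was the 1 pathway gene at least 2-fold from the control on all 3 hairpins. That is 1 of 78 tested, beside 0.236% of all genes higher and 1.68% lower by that rule. The signals of Il1rn were 55.03, 21.1 and 19.3 on hairpins 1, 2 and 3, against 163 on the control array. Hairpin 2 was not well above background. With that signal taken as it stands, the mean difference was -2.49 ± 0.88 (adjusted p = 0.846). Arid5a, which encodes a protein that stabilises Il6 mRNA, had signals of 2435, 2662 and 3410 on hairpins 1, 2 and 3, against 1751 on the control array, all hairpins above it (0.73 ± 0.23, adjusted p = 0.964). Nfkbiz, an NF-kappa B cofactor gene, was at 0.86, 0.05 and 0.39 on hairpins 1, 2 and 3. The interleukin 1 receptor gene Il1r1 was at -0.24 ± 0.64 and the mRNA decay gene Zfp36l2 at -0.20 ± 0.03. The cytokine genes Tnf and Il1b were not well above background on any array.

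**Figure D4:**
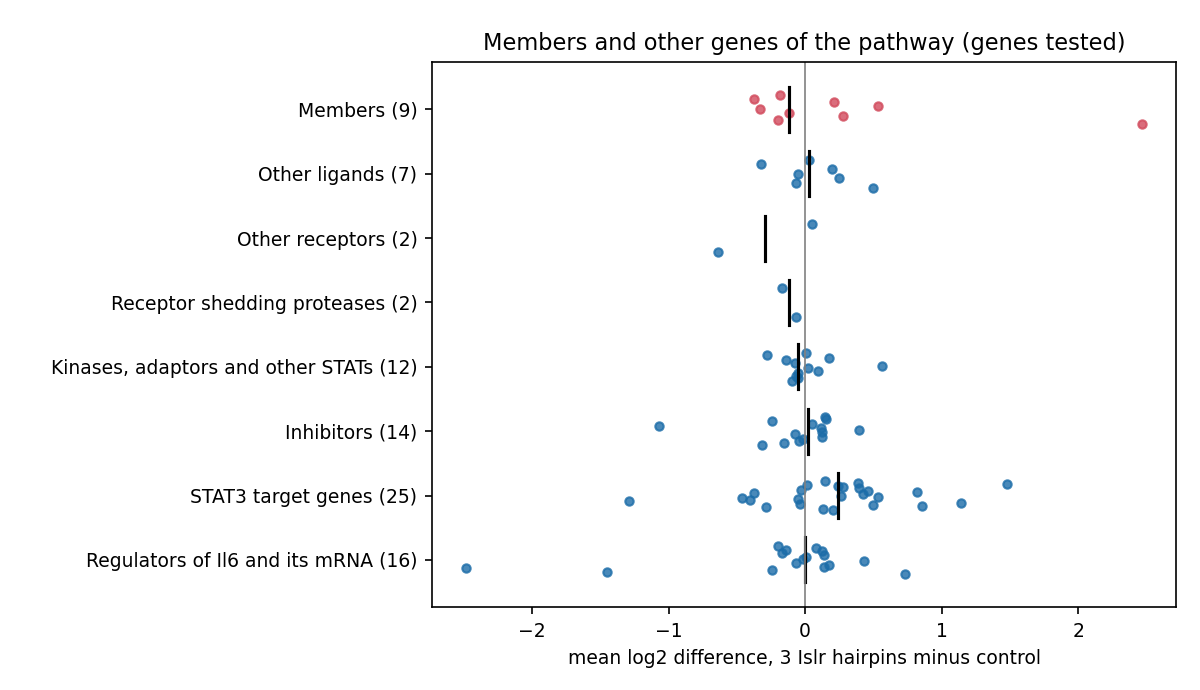
Mean log2 difference of the 3 Islr hairpins from the control array (horizontal axis) for the 9 members and for the tested genes of 7 other lists of the pathway (number tested in brackets), with 1 point per gene and the list median as a line. Il6, at 2.47, stands alone to the right, and Il1rn, at -2.49, is the leftmost point.

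All 13 stromal marker genes were well above background on each array. Of these, 4 lay above the control on all 3 hairpins, beside 27.6% of all genes, 4 below it, beside 24.6%, and 5 on both sides. Thy1 was at 1.68, 0.91 and 0.77 on hairpins 1, 2 and 3, and Pdgfra at -0.10, -1.15 and -1.17. Pdgfrb was at -0.05, -1.15 and -0.56, and Nt5e at -1.48, 0.89 and 0.24. Of 12 leukocyte markers, 6 were well above background on each array (Itgam, Csf1r, Cd14, Cd68, Cd3e and Fcer1g), and among the others Ptprc, Adgre1, Lyz2, Tyrobp and Laptm5 were not on any. Cd14, the gene of an endotoxin co-receptor, had signals of 1661, 1400.5 and 1407 on hairpins 1, 2 and 3, against 1041 on the control array (0.56 ± 0.18, adjusted p = 0.964). Itgam, an integrin chain gene, had signals of 8743, 7547 and 4960.4 on the hairpins, against 8880.4 on the control array. Csf1r, Cd68, Cd3e and Fcer1g lay below the control on all 3 hairpins, with means of -0.31, -0.64, -0.14 and -0.37. That is 4 of the 6 tested, beside 24.6% of all genes, and 1 of the 6 (Cd14) lay above, beside 27.6%. The summed scaled signal of the leukocyte list was 29.6, 24.8 and 19.1 on hairpins 1, 2 and 3, against 27.9 on the control array. Itgam made up most of this sum on every array, so the sum mainly follows that gene. Whether leukocytes were present, and any part of theirs in the Il6 difference, was not tested. Of 6 endothelial markers, 2 or 3 were above background per array, and of 4 epithelial markers 1 (Krt18). The share of spots well above background was 49.4% to 53.8% on the hairpins and 50.9% on the control array.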

How the data were processed

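Expression was measured on 4 one-colour Agilent arrays, 1 per hairpin. Scanner images were extracted by the authors in Feature Extraction 11.5.1.1 from Agilent (design 028005, genome build mm9), per the file headers, and all 4 lay on 1 slide. From the deposited files, the processed signal was taken as the intensity of each spot, on a linear scale. The headers do not record how the software corrected background within an array.

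Control spots were left out, and so were flagged spots among the rest (176 to 208 per array). Signals were scaled by subtracting the log2 of the array's 75th percentile, and spots of a probe were averaged. Of 55681 probes, 28026 were named by matching their accession to the RefSeq table of GRCm38.p6, and the rest were not used. A probe was kept if the software called it well above background for the control or for all 3 hairpins (13564 genes), and the brightest kept probe stood for a gene. Limma 3.58.1 in R 4.3.3 (lmFit, eBayes, two-sided, Benjamini-Hochberg adjusted p under 0.05) compared the 3 hairpins with the control. The fit was also run on data simulated under its own model, where control and hairpins have the same spread. Such a run cannot check the error taken for the lone control array. Figures were drawn with matplotlib 3.10.9.

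The members and gene lists were chosen with earlier results of these data known. Genes named beyond the members were, per list, those past limma's threshold or at least 2-fold on all 3 hairpins, the up to 4 of largest mean difference among genes above background on all 4 arrays, and the 5 nearest in pattern to Il6, Lif and Il11. Osm, Tnf, Il1b and the markers were named beside these, and some genes that the rule names are not reported here. Alternatives were other scalings and filters, normexp (offset 50, on the median spot signal), the deposited series table (the same intensity times 1 constant per array), the mean over probes, flagged spots kept, an intensity trend in eBayes, a 1.5-fold rule, and each hairpin left out. The number of arrays limits the precision.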

Additional observations from a re-analysis of the deposited data

How the results depend on the processing

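Over 12 other settings per gene (9 of processing and each hairpin left out), none of the 9 members passed limma's test; the smallest adjusted p among them was 0.156, for Il6 without hairpin 2. An intensity trend in eBayes also gave 0 calls. The mean of Il6 ranged from 1.98 (normexp) to 3.24 (without hairpin 2), that of Lifr from 0.38 to 0.78 and that of Stat3 from -0.46 to -0.21, with their signs kept. By direction, 7 of the 9 members kept the sign of their mean under all 12 settings, and 2 did not: leaving out 1 hairpin gave Lif means from -0.33 to 0.0061 (above 0 without hairpin 3) and Socs3 means from -0.35 to 0.022 (above 0 without hairpin 2). The count of members at least 2-fold from the control was 0 to 1 with 1 hairpin left out (Il6 without hairpin 2), and 1 under a 1.5-fold rule. The count on one side of the control was 4 under the 9 settings of processing and 5 to 7 with 1 hairpin left out, where fewer hairpins have to lie on one side. Over all genes, limma called 47 lower, 50 with the mean over probes, 53 with median centring and 75 with quantile normalization, and 0 with normexp, with no filter, with either other filter on dim probes, with an intensity trend or with any hairpin left out. No paired analysis was possible because the control hairpin has 1 array.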
